A study of Mus musculus with 4 samples.

Results

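The Zfp-named zinc finger genes of mouse Hoxb8 cells were compared between cells expressing DNMT3A R882H and cells with an empty vector (EV). Members were the protein-coding genes whose symbol is Zfp followed by a number, without the RNA-binding Zfp36 family, that had at least 40 counts summed over the 4 libraries. This left 227 of 364 such genes in the count table, which has 52636 gene lines; of the other 137 genes, 63 had 0 counts in every library. The members were thus chosen by their total counts over all libraries, with no regard to group, and these totals are given as a description. Member totals ran from 40 to 6378 counts with a median of 241. Just inside the limit stood Zfp382, Zfp605 and Zfp708 with 40 counts each, and just outside stood Zfp184 with 39 counts and Zfp189 and Zfp940 with 37 each.

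Hoxb8 cells, as the name is generally used, are mouse haematopoietic progenitors that the homeobox protein Hoxb8 keeps dividing. One group expressed DNMT3A R882H (2 libraries) and the control group carried EV (2 libraries), with no treatment or time on the labels, and RNA was profiled near the 3′ end with QuantSeq. DNMT3A is a de novo DNA methyltransferase, and R882H is a recurrent missense change in human acute myeloid leukaemia that lowers its methylating activity. The sources used here do not give the promoter that drives the transgene or the number of clones. Whether the libraries of a group stem from separate cultures is not on the labels, and p-values then measure only how far these samples scatter, which may be technical.

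Most mammalian Zfp genes encode proteins with arrays of zinc fingers of the Cys2-His2 type, in which each finger contacts a few bases of DNA. The largest subfamily also has a KRAB domain, which recruits the co-repressor Trim28 (KAP1) and through it histone deacetylases, histone H3 lysine methyltransferases and heterochromatin proteins. KRAB zinc finger proteins are known for silencing retroelements and for keeping DNA methylation at imprinted loci, and many of their genes lie in tandem clusters made by duplication. Other Zfp genes encode activators, co-repressors, RNA-binding proteins or ubiquitin ligases and are related to the KRAB genes by little more than the name.

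Promoters of 6 members are shown because CG dinucleotides, the substrate of DNMT3A, vary widely between them: Zfp827, Zfp422, Zfp770 and Zfp503, without a KRAB pattern, hold 18 to 32, and the KRAB genes Zfp111 and Zfp458 hold 5 and 9. All but Zfp503 were higher in R882H cells. Each sequence runs 5′ to 3′ on the gene's strand from 250 bases before to 50 bases after the annotated start, with CG in capitals (RefSeq, GRCm38.p6).
Zfp827, chr8:79028187-79028486, plus strand, 23 CG: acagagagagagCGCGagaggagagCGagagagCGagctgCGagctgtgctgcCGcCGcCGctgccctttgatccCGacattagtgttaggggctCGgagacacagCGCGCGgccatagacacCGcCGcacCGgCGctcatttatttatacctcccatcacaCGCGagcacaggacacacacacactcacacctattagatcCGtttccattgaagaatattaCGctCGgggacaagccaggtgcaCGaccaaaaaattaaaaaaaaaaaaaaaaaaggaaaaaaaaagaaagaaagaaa
Zfp422, chr6:116628652-116628951, minus strand, 32 CG: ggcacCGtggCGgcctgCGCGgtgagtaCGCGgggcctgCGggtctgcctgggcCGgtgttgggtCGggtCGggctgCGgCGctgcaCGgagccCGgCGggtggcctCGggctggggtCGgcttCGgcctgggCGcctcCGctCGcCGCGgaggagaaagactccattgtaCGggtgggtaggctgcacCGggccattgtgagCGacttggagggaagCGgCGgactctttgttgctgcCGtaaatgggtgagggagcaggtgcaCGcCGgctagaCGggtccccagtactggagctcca
Zfp770, chr2:114201383-114201682, minus strand, 18 CG: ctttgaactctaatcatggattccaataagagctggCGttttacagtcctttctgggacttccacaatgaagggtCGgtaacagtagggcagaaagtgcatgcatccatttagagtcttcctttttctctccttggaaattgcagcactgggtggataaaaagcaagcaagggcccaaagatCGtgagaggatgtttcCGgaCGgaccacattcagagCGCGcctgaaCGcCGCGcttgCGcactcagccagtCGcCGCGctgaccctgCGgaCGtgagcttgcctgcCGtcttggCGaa
Zfp503, chr14:21989552-21989851, minus strand, 19 CG: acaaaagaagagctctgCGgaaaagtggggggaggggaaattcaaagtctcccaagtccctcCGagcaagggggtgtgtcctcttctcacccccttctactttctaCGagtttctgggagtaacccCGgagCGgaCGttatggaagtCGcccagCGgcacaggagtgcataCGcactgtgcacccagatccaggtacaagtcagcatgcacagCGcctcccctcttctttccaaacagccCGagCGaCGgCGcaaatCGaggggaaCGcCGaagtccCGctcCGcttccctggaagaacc
Zfp111, chr7:24208100-24208399, minus strand, 5 CG, 1 of 2 listed promoters: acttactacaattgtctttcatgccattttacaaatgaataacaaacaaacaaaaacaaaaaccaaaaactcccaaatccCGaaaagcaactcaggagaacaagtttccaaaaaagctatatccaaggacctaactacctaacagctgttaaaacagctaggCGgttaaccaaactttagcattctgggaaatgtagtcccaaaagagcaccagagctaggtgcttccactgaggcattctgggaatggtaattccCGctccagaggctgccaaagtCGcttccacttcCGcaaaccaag
Zfp458, chr13:67268945-67269244, minus strand, 9 CG: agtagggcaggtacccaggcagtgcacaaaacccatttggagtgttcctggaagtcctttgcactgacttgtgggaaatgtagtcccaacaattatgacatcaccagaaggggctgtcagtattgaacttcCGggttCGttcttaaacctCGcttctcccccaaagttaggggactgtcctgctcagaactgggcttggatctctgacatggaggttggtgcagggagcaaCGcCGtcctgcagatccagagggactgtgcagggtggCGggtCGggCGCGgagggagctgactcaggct

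Libraries held 5921985 and 5847609 counts in R882H and 5470330 and 5605092 in EV, and a count of 0 allows up to 3 counts, or 0.501 to 0.549 CPM (counts scaled to library size), for counting error only. Endogenous mouse Dnmt3a had 254 and 239 counts in R882H and 264 and 270 in EV (log2 fold change −0.19 ± 0.15, adjusted p = 0.334); a 3′ tag need not cover a transgene, so this does not check its expression. Several, but not all, lists of lineage markers moved with the groups. B lineage markers, all 9 of 9 with counts, summed to 1832 and 1831 CPM in R882H against 660 and 670 in EV. The 6 megakaryocyte markers summed to 28.0 and 22.2 CPM in R882H against 1059 and 872 in EV. Pf4 (90 and 60 counts in R882H, 5635 and 4781 in EV) and Ppbp carry the megakaryocyte sum in EV, while Itga2b rose (1.35 ± 0.38, adjusted p = 0.00468). Granulocyte-monocyte progenitor markers (8 of 8 with counts) summed to 2852 and 2916 CPM in R882H against 1394 and 1264 in EV, with Mpo and Ctsg higher, Cebpa lower and 4 markers not called. Summed levels were higher in R882H also for mast cell and basophil markers (5 of 6, Fcer1a at 0) at 405 and 416 CPM in R882H against 90.9 and 94.9 in EV, although Gata2 fell (−0.86 ± 0.17). Of the T lineage list Lck fell, with 7 and 5 counts in R882H against 36 and 47 in EV (−2.83 ± 0.43, adjusted p = 2.28e-06), Cd3d had 1 count, and Cd3e, Cd3g, Trbc1, Trbc2 and the 5 stromal markers were at 0 throughout. Macrophage markers (3 of 6 with counts) summed to 69.4 and 61.1 CPM in R882H against 52.3 and 55.5 in EV. Of these, Adgre1 fell (−1.89 ± 0.27), Cd68 rose (1.01 ± 0.17) and Csf1r was not called. Erythroid markers (4 of 6) summed to 9.35 and 8.76 CPM in R882H against 13.9 and 10.9 in EV, with none called. All 4 Y-linked genes looked at had more counts in R882H: Ddx3y had 65 and 41 in R882H against 0 and 2 in EV, Eif2s3y 26 and 29 in R882H against 1 and 0 in EV, Uty 12 and 10 in R882H against 0 and 0 in EV, and Kdm5d 7 and 7 in R882H against 1 and 2 in EV. Whether both groups stem from the same starting cells is not on the labels, so in every R882H over EV value the origin of the cells and DNMT3A R882H cannot be told apart. Xist was counted in all libraries (1880 and 1509 in R882H, 1463 and 1438 in EV). The part of these differences in the Zfp values was not tested, and in bulk RNA fewer cells of a type and less RNA per cell cannot be told apart.

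Zfp genes had mostly positive fold changes in R882H cells over EV cells, most of them small, and few members fell. Of 226 members tested with edgeR, 54 rose (23.9%) and 15 fell (6.64%), while 157 did not pass an adjusted p of 0.05. Fold changes are log2, R882H over EV, with ± SE throughout. Over all 11444 genes tested, 38.7% were called, 19.3% higher and 19.4% lower, so the share of members that rose was near the background and the share that fell was below it. The median log2 fold change of the members was 0.29 (middle 50% between −0.06 and 0.61), against 0.01 (−0.35 to 0.38) over all genes tested. Values were positive for 161 members and negative for 65; over all genes tested 51% were positive. Genes between the 10th and 90th percentile of the members' mean level (3.26 to 37.1 CPM) had a median of 0.05, with 19.7% called higher and 16.8% called lower. DESeq2, as an alternative, called 30 members higher and 8 lower, with 25.5% of all genes called, and 7 members fell in edgeR without EV replicate 2.

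**Figure D1:**
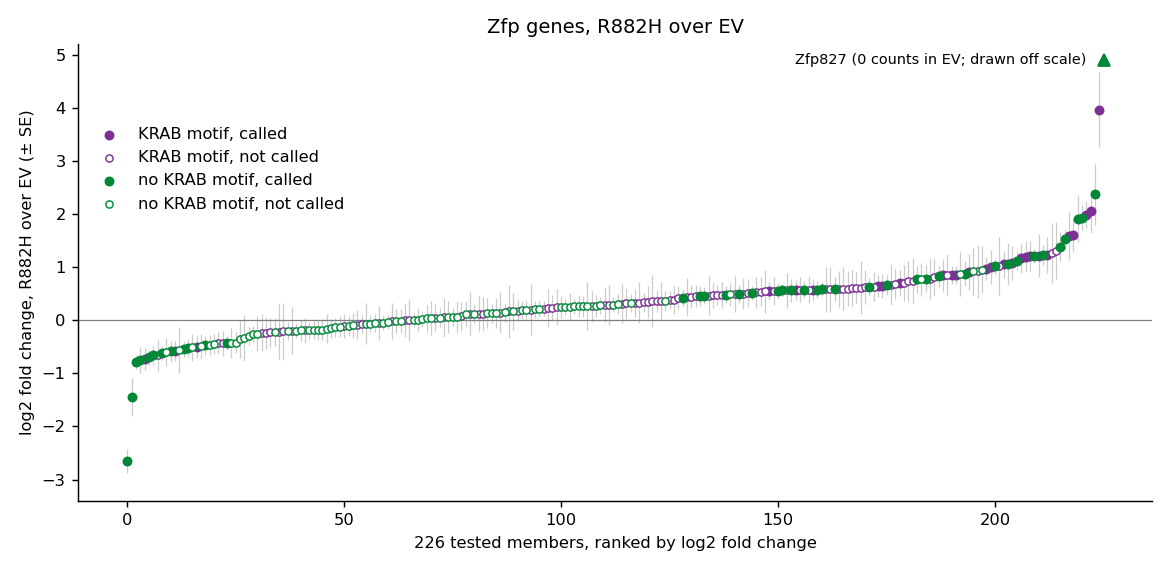
Log2 fold change (R882H over EV, ± SE) of the 226 tested members, ranked; purple marks the KRAB motif and filled points were called. Zfp827, which had 0 counts in EV, is drawn off scale, and 161 points lie above 0.

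The median member reached 11.4 and 11.03 CPM in the R882H libraries and 9.33 and 8.98 CPM in the EV libraries. Summed over members, the level was 4806 and 4754 CPM in R882H against 4189 and 4332 CPM in EV, without overlap. Both R882H libraries lay above both EV libraries for 117 members and below them for 38, where 35.2% and 33.9% of all genes tested did so. A fitted change of 2-fold or more was called for 23 members upward (10.2%) and 2 downward, against 7.82% and 6.3% of all genes tested. Zfp526, with 8 and 5 counts in R882H and 8 and 24 in EV, was the 1 member not tested.

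Some members entered the test through 1 group only, which favours a difference in that direction. A group counts as reaching the filter only where both of its libraries do. Of the 226, 205 reached the count filter in both groups, with a median of 0.27. Of these, 47 rose (22.9%) and 14 fell (6.83%), where 19.3% and 19.4% of all genes tested did. The filter was reached in R882H only by 16 members, of which 7 rose (Zfp827, Zfp111, Zfp458, Zfp799, Zfp974, Zfp773 and Zfp772). It was reached in EV only by 3, of which Zfp609 fell. The other members so admitted were not called. A further 2 members were tested although neither group reached the filter in both libraries, and neither member was called.

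KRAB zinc finger genes made up about the same number of members as the rest: 112 had a KRAB-A pattern in their longest open reading frame and 115 did not. The pattern was widened after a tighter form missed known KRAB genes, with the fold changes already known. It still misses divergent KRAB domains, such as those of Zfp445 and Zfp263, which count among the 115. KRAB members had a median log2 fold change of 0.48, with 24 called higher (21.4%) and 3 lower (2.68%), and 93 of 112 were positive. Those without the pattern had a median of 0.13, with 30 of 114 higher (26.3%) and 12 lower (10.5%). Over all genes tested 19.3% were called higher and 19.4% lower, and 51% had positive values. The share of KRAB members that rose was thus near the background. KRAB genes were also counted more thinly, with a median level of 6.21 CPM against 19.1 CPM in the others. Their summed level was 1145 and 1122 CPM in R882H against 881 and 837 CPM in EV, so the groups did not overlap. Without genes whose exons overlap another gene the medians were 0.47 with the pattern and 0.25 without it. The difference between the 2 classes was not tested.

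**Figure D2:**
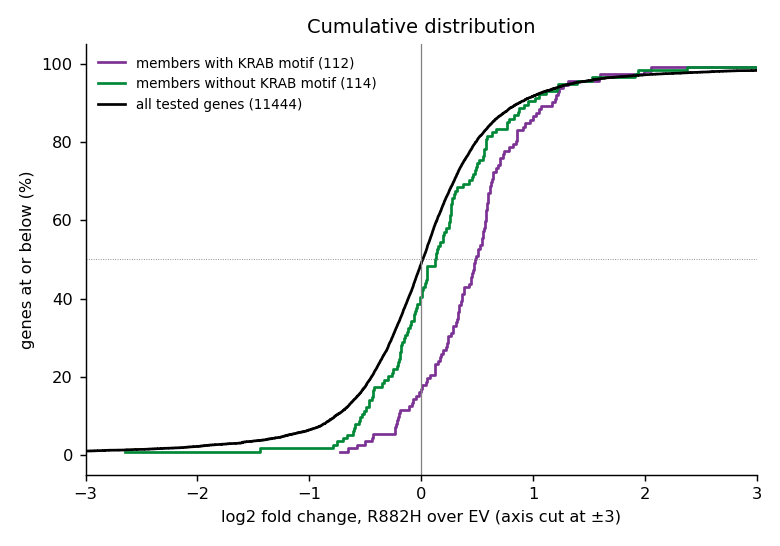
Cumulative share of genes (%) against log2 fold change (R882H over EV) for KRAB members, other members and all 11444 genes tested, with the axis limited to ±3. The KRAB curve crosses 50% at 0.48, the other members at 0.13 and all genes at 0.01. The final KRAB pattern was set with the fold changes already known.

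Among the KRAB members that rose, fitted log2 fold changes other than Zfp111 ran from 0.55 (Zfp120) to 2.05 (Zfp458); Zfp458, Zfp772 and Zfp773 did not reach the count filter in EV. Zfp458 had 40 and 39 counts in R882H against 7 and 11 in EV, and Zfp991 had 109 and 100 counts in R882H against 26 and 24 in EV, so neither pair overlapped. Zfp606 (84 and 44 counts in R882H, 20 and 20 in EV) rose by 1.60 ± 0.32 and Zfp763 (43 and 41 in R882H, 17 and 17 in EV) by 1.23 ± 0.34. Zfp111 had 38 and 15 counts in R882H and 0 and 3 in EV, a ratio of 16.8 with an exact 95% interval of 5.45 to 84.2 for counting error. The 3 KRAB members that fell were Zfp719, Zfp568 and Zfp658, the last with 89 and 112 counts in R882H against 106 and 167 in EV, which overlap (−0.51 ± 0.20, adjusted p = 0.0444). The number of KRAB members that fell was 0 under DESeq2 and without EV replicate 2 or R882H replicate 1 in edgeR, where 2, 2 and 1 had an unadjusted p under 0.05, and 5 without R882H replicate 2; DESeq2 called 12 higher.

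The member with the smallest p was Zfp827, whose human counterpart ZNF827 recruits the nucleosome remodelling and deacetylase complex NuRD to telomeres. It had 76 and 84 counts in R882H and 0 in both EV libraries, at least 50.8-fold higher against 3 counts over the EV group (adjusted p = 4.52e-12). Zfp827 reached the count filter in R882H only, which favours a difference, and its p-value is no separate support for that difference. Its mean level was 13.7 ± 1.43 CPM in R882H (SD, n = 2). Zfp827 was thus counted in both R882H libraries and not detected in either EV library.

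Zfp422 had 1074 and 867 counts in R882H against 399 and 400 in EV (166 ± 19.4 and 71.7 ± 1.81 CPM, SD, n = 2 each), and rose by 1.21 ± 0.14 on the log2 scale (adjusted p = 6.85e-09). Zfp397, a SCAN-domain gene, had 229 and 262 counts in R882H against 78 and 85 in EV, and rose by 1.52 ± 0.18 (adjusted p = 1.59e-08). Zfp770 had 128 and 125 counts in R882H against 32 and 31 in EV, and rose by 1.93 ± 0.23 (adjusted p = 2.17e-08). In each of these the replicates lay close together and far from the other group. The CG-rich promoters of Zfp422 and Zfp770 are among those printed. Zfp991, a KRAB gene, rose by 1.99 ± 0.25 (adjusted p = 7.86e-08). Of the 50-base words at its 3′ end, 63.2% also occur in other genes, most often the pseudogene Znf41-ps, so its reads may be shared.

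Zfp362 had 505 and 489 counts in R882H against 194 and 276 in EV (log2 fold change 1.01 ± 0.15, adjusted p = 9.43e-07). Zfp263, a sequence-specific regulator with SCAN and KRAB domains, had 260 and 232 counts in R882H against 104 and 113 in EV (1.11 ± 0.17, adjusted p = 2.44e-06). Zfp692 had 167 and 171 counts in R882H against 61 and 77 in EV (1.22 ± 0.19, adjusted p = 3.25e-06). The R882H values of all 3 exceeded the EV values in every library.

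Of the members that fell, the largest change belonged to Zfp503, one of the NLZ co-repressors. It had 26 and 35 counts in R882H against 158 and 208 in EV (5.23 ± 1.27 and 32.8 ± 5.46 CPM, SD, n = 2 each), and fell by 2.65 ± 0.22 on the log2 scale (adjusted p = 1.06e-11). Its paralog Zfp703, whose human counterpart is a breast cancer oncogene, had 914 and 935 counts in R882H against 1314 and 1731 in EV (−0.79 ± 0.14, adjusted p = 2.18e-05). Both NLZ genes were therefore lower in every R882H library than in every EV library. Neither carries a finger by the pattern used, also in its wider form.

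Exon overlap with other genes, which leaves counts uncertain, applies to Zfp652, Zfp106 and Zfp687 here. Zfp652, whose human counterpart binds the co-repressor CBFA2T3, had 324 and 234 counts in R882H against 382 and 481 in EV (−0.70 ± 0.15, adjusted p = 0.000251). Zfp106, an RNA-binding protein needed by motor neurons, had 659 and 581 counts in R882H against 876 and 926 in EV (−0.61 ± 0.13, adjusted p = 0.000317). Zfp609, a partner of the cohesin loader Nipbl, had 22 and 10 counts in R882H against 43 and 40 in EV (−1.44 ± 0.36, adjusted p = 0.00161), and reached the count filter in EV only. Each was lower in both R882H libraries, and Zfp609 lost its call without R882H replicate 2 (adjusted p = 0.0676). Zfp574 (−0.66 ± 0.17) was lost likewise without R882H replicate 2 (adjusted p = 0.0833). Zfp687, which works with ZMYND8, changed by −0.55 ± 0.15 and Zfp719 by −0.73 ± 0.21, and both lost their calls without EV replicate 2, and also without R882H replicate 2 (Zfp687) or R882H replicate 1 (Zfp719), with adjusted p up to 0.107 and 0.141 over the alternatives.

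**Figure D3:**
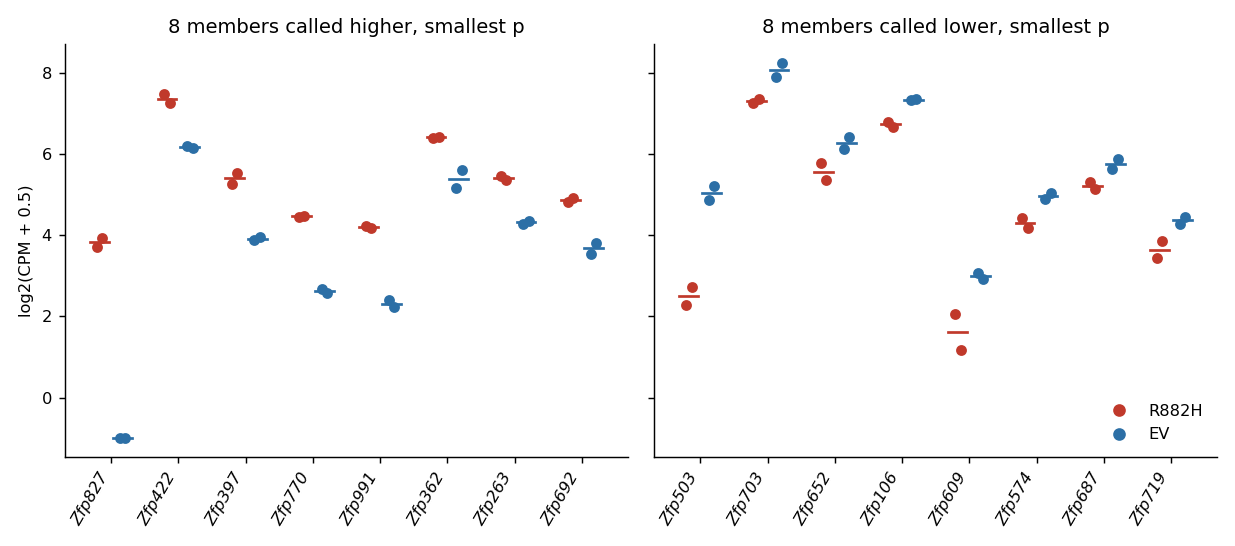
Level as log2(CPM + 0.5) of the 8 members called higher and the 8 called lower with the smallest p, 1 point per library and a bar at the mean, R882H (red) left of EV (blue). In all 16 the points of the 2 groups are apart, and Zfp827 lies at the lowest possible value in EV.

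The members with the most counts went different ways. Zfp207, a spindle protein also called BuGZ, had 1567 and 1652 counts in R882H and 1596 and 1563 in EV (275 ± 19.6 and 284 ± 11.8 CPM, SD, n = 2 each), with overlapping values (−0.04 ± 0.13, adjusted p = 0.827). Zfp706, which promotes the exit of mouse embryonic stem cells from pluripotency, had 1875 and 1834 counts in R882H against 1188 and 1210 in EV and rose by 0.56 ± 0.13 (adjusted p = 0.000829), although 27.8% of its 3′ words also occur in other genes. Zfp91, a ubiquitin ligase, had 714 and 685 counts in R882H against 872 and 930 in EV and fell by 0.43 ± 0.13 (adjusted p = 0.00766). Its exons overlap Cntf, and the call was lost without either R882H library (adjusted p up to 0.119).

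Of the listed KRAB silencers with a known DNA target, 5 were members, and they did not move together: 2 rose, 1 fell and 2 did not pass. They are too few to set against the 19.3% and 19.4% of all genes tested. Zfp445, which keeps imprints, had 279 and 223 counts in R882H against 180 and 159 in EV (0.49 ± 0.16, adjusted p = 0.0162), and lost its call under DESeq2 and without EV replicate 2 or R882H replicate 1 (adjusted p up to 0.221). Zfp932, a repressor of retroelements, had 90 and 118 counts in R882H against 51 and 50 in EV (0.97 ± 0.23, adjusted p = 0.000788). Of its 3′ words, 54.9% also occur in other genes, most often Gm15446. Zfp568, which represses a placental promoter of Igf2, had 85 and 96 counts in R882H against 115 and 143 in EV (−0.58 ± 0.19, adjusted p = 0.0155), and lost its call under the same 3 alternatives (adjusted p up to 0.193). Igf2 itself had 0 counts in all libraries. Zfp809, a silencer of murine leukaemia virus, had 69 and 63 counts in R882H and 65 and 71 in EV (−0.11 ± 0.22, adjusted p = 0.726). Zfp708 had 15 and 14 counts in R882H and 5 and 6 in EV (1.31 ± 0.54, adjusted p = 0.0526). Its whole 3′ end is shared with other genes, Gm28557 among them. Zfp708 was called with a filter of 10 counts in every library of a group (adjusted p = 0.0387). Zfp57, the other imprint keeper, had 0 counts.

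A list of transcription regulators held 18 members, of which 2 rose (11.1%) and 5 fell (27.8%), where 19.3% and 19.4% of all genes tested did. The list was set with earlier results known and leaves out other regulators, such as the co-repressor Zfp503. Zfp217, a co-repressor, had 326 and 276 counts in R882H against 188 and 203 in EV (0.55 ± 0.15, adjusted p = 0.00408), a call lost without R882H replicate 1 (adjusted p = 0.0792), and Zfp263 is given above. The 5 that fell were Zfp91, Zfp335, Zfp609, Zfp687 and Zfp703. Zfp335, known for its role in T cell development, had 47 and 39 counts in R882H against 59 and 79 in EV (−0.75 ± 0.25, adjusted p = 0.0170); its exons overlap Pcif1 and Zfp335os, and the call was lost under DESeq2 and without EV replicate 2 or R882H replicate 2 (adjusted p up to 0.173). Values of the 11 others lay between −0.21 (Zfp516) and 0.54 (Zfp110), among them Zfp143, an activator, at −0.12 and Zfp410, the activator of Chd4, at 0.20. Single libraries moved both ends: Zfp110 was at 0.26 without EV replicate 2 and at 0.86 without EV replicate 1, where it was called (adjusted p = 0.0430), and Zfp516 was at −0.05 and −0.35 without the same libraries.

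Of the listed RNA, ribosome and spindle factors, 8 were members, of which 3 rose and 2 fell. These 8 are too few to set against the 19.3% and 19.4% of all genes tested. Zfp622, a factor of the large ribosomal subunit, had 554 and 567 counts in R882H against 353 and 362 in EV (0.58 ± 0.13, adjusted p = 0.000666). Zfp638, whose human counterpart silences unintegrated retroviral DNA, had 521 and 548 counts in R882H against 357 and 358 in EV (0.51 ± 0.13, adjusted p = 0.00249), and lost its call without R882H replicate 2 (adjusted p = 0.0604). Zfp830 had 149 and 123 counts in R882H against 91 and 98 in EV (0.45 ± 0.18, adjusted p = 0.0499), a call lost under all 12 alternatives (adjusted p up to 0.300). Zfp598, the ubiquitin ligase that marks collided ribosomes, had 198 and 145 counts in R882H against 220 and 250 in EV (−0.53 ± 0.17, adjusted p = 0.0115), lost under DESeq2 and without EV replicate 2 or R882H replicate 2 (adjusted p up to 0.265). Zfp106 is the other that fell. Zfp326 (−0.05) and Zfp346 (0.26) did not pass, nor did Zfp207.

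Members are clustered along the genome. In 18 runs of neighbouring Zfp genes, with starts at most 1 Mb apart and at least 4 members, lay 123 members. Of the 122 tested, 25 were higher (20.5%) and 5 lower (4.1%), with a median of 0.35. The 104 outside had 29 higher (27.9%) and 10 lower (9.62%), with a median of 0.26. Over all genes tested 19.3% were higher and 19.4% lower. A run on chromosome 13 from 67038596 to 67827002 (GRCm38) held 12 members, all KRAB genes and all positive, between 0.23 and 2.05 with a median of 0.53. Only Zfp458 and Zfp65 rose there; Zfp65 had 66 and 70 counts in R882H against 34 and 22 in EV (1.21 ± 0.28, adjusted p = 0.000807). Of these 12, 6 share 3′ sequence with other genes and are therefore uncertain. A run on chromosome 17 from 21008903 to 23599487 held 15 members, 14 with the KRAB pattern, of which 14 were positive, 2 rose (Zfp994 and Zfp945) and the median was 0.47. Zfp994 lost its call under DESeq2 and without EV replicate 1 or R882H replicate 2 (adjusted p up to 0.110).

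Other runs had other values. On chromosome 9 from 19622102 to 20605409, 6 KRAB members lay between 0.27 and 0.99, of which Zfp560 and Zfp26 rose, both losing their calls under DESeq2 and in 2 of the fits without 1 library (adjusted p up to 0.106 and 0.108). On chromosome 7 from 127233061 to 127885996, 10 members had a median of −0.10, 4 were positive and only Zfp629 rose, a call lost under DESeq2 and without EV replicate 1 (adjusted p up to 0.268). The 5 members from 4915217 to 5053723 on chromosome 7, none with the KRAB pattern, had a median of −0.33, with adjusted p from 0.0555 to 0.696. The run on chromosome 7 from 41633203 to 43618285, all 6 with the KRAB pattern, held calls of both directions: Zfp788 and Zfp715 rose, Zfp658 and Zfp719 fell. Of these, Zfp715 kept its call under every alternative, and the other 3 lost theirs under DESeq2 and without EV replicate 2 or R882H replicate 1 (adjusted p up to 0.482 for Zfp788, 0.605 for Zfp658 and 0.141 for Zfp719).

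**Figure D4:**
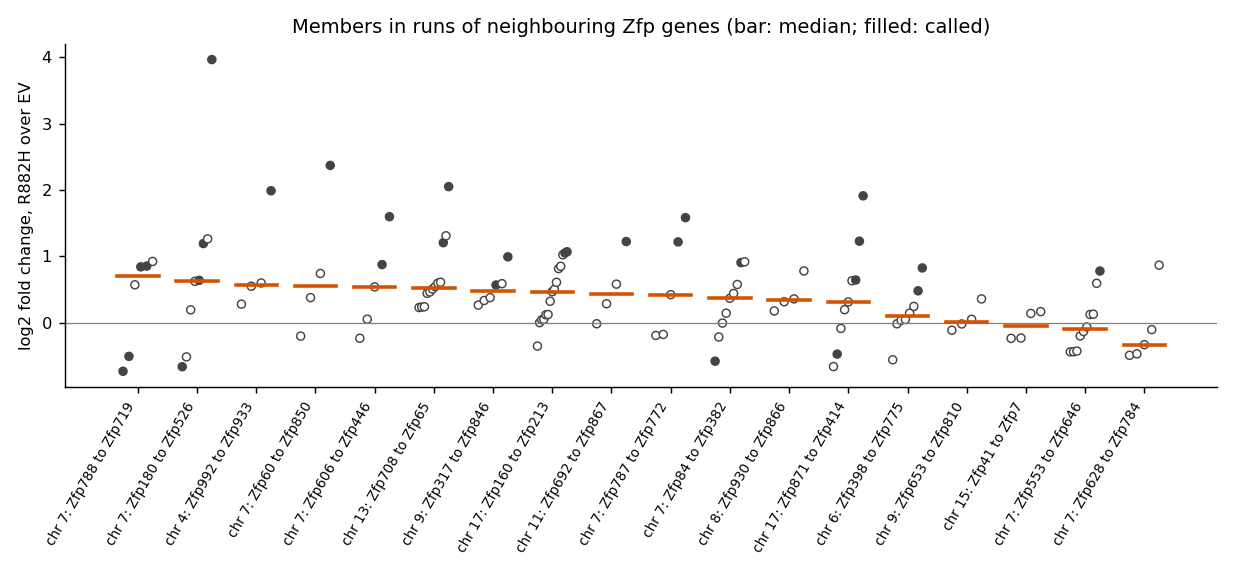
Log2 fold change (R882H over EV) of members in the 18 runs of neighbouring Zfp genes, ordered by median (orange bar); filled points were called. All 12 points of the chromosome 13 run from Zfp708 to Zfp65 lie above 0, and the run from Zfp628 to Zfp784 has a median of −0.33.

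Fingers were counted from the open reading frames. By the pattern of 2 cysteines with 2 residues between them, 12 residues to a histidine and a further 3 to 5 to a histidine or cysteine, members had 0 to 36 fingers, with medians of 11 in KRAB members and 7 in the rest. Members with at least 15 fingers had a median log2 fold change of 0.52, with 15 of 46 higher (32.6%) and 2 lower (4.35%). Those with up to 4 fingers had 0.09, with 11 of 46 higher (23.9%) and 8 lower (17.4%). Over all genes tested 19.3% were higher and 19.4% lower. Across the 226 members Spearman's rho of finger number with log2 fold change was 0.238. KRAB genes have more fingers and fewer counts, and the part of this in the correlation was not tested.

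Promoters could be matched for 187 members through RefSeq. The median promoter held 16 CG, against 7 over all 32851 promoters in the table, with 11 in KRAB members and 21.5 in the others. The 51 members with at most 10 CG had a median log2 fold change of 0.55, with 16 higher (31.4%) and 2 lower (3.92%). The 70 with 11 to 20 CG had 0.38, with 16 higher (22.9%) and 4 lower (5.71%). The 65 tested with 21 or more had 0.12, with 14 higher (21.5%) and 4 lower (6.15%). Over all genes tested 19.3% were higher and 19.4% lower. Within KRAB members the medians were 0.57, 0.47 and 0.43 (43, 41 and 12 members), and within the others 0.32, 0.26 and 0.05 (8, 29 and 53 members). The bins of 12 and 8 members are too small to read an order from. The Pearson correlation of CG number with log2 fold change over members was −0.145. Members include Zfp827 with 23 CG, whose fitted value of 9.29 rests on 0 counts in EV. The part of that value in the correlation was not tested. No methylation was measured here.

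**Figure D5:**
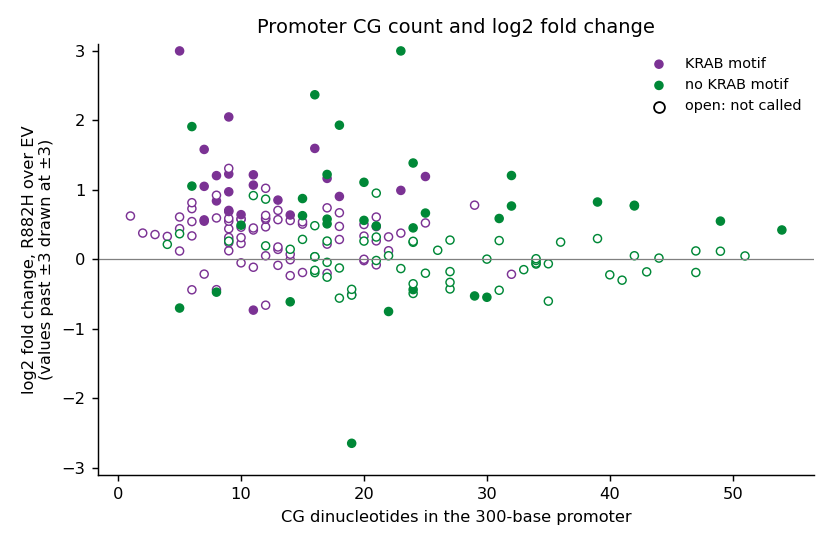
Log2 fold change (R882H over EV) of members against the number of CG in the 300-base promoter, the highest over a gene's promoters; purple marks the KRAB motif, open points were not called and values past ±3 are drawn at ±3. KRAB members crowd at low CG numbers, where the median at 10 CG or fewer is 0.57.

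Motifs in the promoter window were searched on both strands, and each is a match to letters only. The ETS motif CCGGAAGT was found in 10.5% of member promoters against 3.89% of all promoters in the table, the cyclic AMP response element TGACGTCA in 3.93% against 1.79%, and the YY1 motif AAGATGGCG in 3.93% against 1.40%. The NRF1 motif, searched as its palindromic consensus, was found in 3.93% of member promoters against 0.971% of all. All 4 motifs contain CG, and member promoters held a median of 16 CG against 7 over all promoters. Members needed at least 40 counts, while the promoters in the table were not limited to counted genes. The part of either difference in these shares was not tested. Of the printed sequences, that of Zfp458 holds the ETS motif.

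Genes of the proteins through which KRAB factors silence chromatin were called in both directions. Of 40 partner genes, all tested, 6 rose (15%) and 5 fell (12.5%), both below the 19.3% and 19.4% over all genes tested, with a median of −0.02; without 1 library 4 to 7 rose and 4 to 5 fell. Trim28, the co-repressor itself, had 3470 and 3607 counts in R882H and 3023 and 3678 in EV, which overlap (0.01 ± 0.14, adjusted p = 0.955), and the H3 lysine 9 methyltransferase gene Setdb1 was at −0.20 (adjusted p = 0.255). Among those that fell were remodeller genes: Chd3 had 378 and 373 counts in R882H against 689 and 764 in EV (−1.02 ± 0.13, adjusted p = 1.31e-07), and Chd4 had 1829 and 1655 counts in R882H against 2316 and 2823 in EV (−0.63 ± 0.13, adjusted p = 0.000317). Gatad2a (−0.61 ± 0.13), Hdac1 (−0.65 ± 0.20) and the H3 lysine 9 methyltransferase gene Ehmt1 (−0.48 ± 0.13) fell as well. The 29 listed genes not called include Mta1 (0.006), Mta2 (−0.02), Mbd3 (−0.28), Rbbp4 (0.03), Rbbp7 (0.09) and Gatad2b (−0.24). Hdac2 rose (0.64 ± 0.13), with 1080 and 1082 counts in R882H against 605 and 715 in EV. Trim24 (0.92 ± 0.21), Morc3 (0.52 ± 0.14), Fam208a (0.53 ± 0.16), Atrx (0.38 ± 0.13) and H3f3a (0.64 ± 0.15) rose as well. Exons of Fam208a overlap Ccdc66, and those of H3f3a overlap Gm17275 and H3f3aos. Without genes whose exons overlap another gene, 4 partner genes rose and 5 fell.

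Counting leaves some members uncertain. Exons of 45 members overlap those of another counted gene, and these had a median of 0.04 with 5 higher (11.1%) and 7 lower (15.6%). The 182 without overlap had a median of 0.36, with 49 higher (27.1% of those tested) and 8 lower (4.42%). Over all genes tested 19.3% were higher and 19.4% lower. Of the 15 members that fell, 7 are among the 45, including Zfp652, Zfp687, Zfp106 and Zfp91. The strand setting of the counting is not known here, and reads of such genes cannot be told apart. By 3′ sequence, 30 members share more than 10% of their 3′ words with other genes, with 6 higher (20%) and 1 lower (3.33%) and a median of 0.40.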

How the data were processed

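RNA of 4 Hoxb8 cell samples was profiled by QuantSeq. The authors deposited raw counts per Ensembl gene, 1 column per library. The submitters' processing notes name HISAT2 2.0.4, featureCounts (Subread 2.0.0), cutadapt 1.14, bcl2fastq 2.17.1.14, limma 3.48.3, edgeR 3.34.0 and the mm10 build, with no roles; the sources used here do not give the annotation, the strand setting or the treatment of multiply mapped reads. Symbols and 1-based positions come from GENCODE M21 (GRCm38, the assembly of mm10), which named 52489 of 52636 lines.

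In R 4.3.3, counts went through edgeR 4.0.16 (TMM, filterByExpr by group, glmQLFit robust, glmQLFTest; Benjamini-Hochberg over all 11444 tested genes, threshold 0.05), with DESeq2 1.42.0 as an alternative. The procedure was tested on simulated data, where it recovered 32% of 1.5-fold, 88% of 2-fold and 100% of 4-fold changes. Far fewer genes were changed there, with 165 calls among 11444 genes against 4432 in the data, so these rates need not hold here. Small changes that did not pass are not shown to be absent. The SE divides the size of the log2 fold change by the root of the F statistic. CPM uses TMM-scaled library sizes. Within-group log2 CPM correlated at 0.989 (R882H) and 0.987 (EV), and between groups at 0.906 to 0.914; chi-square per degree of freedom was 4.61 and 6.91, so no library was a copy. Intervals cover counting error only. KRAB and finger patterns were sought in the longest open reading frame of coding transcripts, since no protein table was used here, and the KRAB pattern was widened after a first, tighter form missed known KRAB genes, with the fold changes already known; shared 3′ ends are 50-base words of the last 500 bases of a transcript. Exon overlap (either strand, partner with at least 10 counts) used bedtools 2.31.1.

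The members and lists were chosen with earlier results of these data known. Members named are the 8 called higher and 8 called lower with the smallest p, the 4 with the most counts, the role lists, and the 3 at each side of the count limit; others are named to illustrate a count or a run and were chosen after their values were seen.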

Additional observations from a re-analysis of the deposited data

How the results depend on the processing

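Of the calls made, 27 of 54 higher and 4 of 15 lower members were kept under every alternative that gave a value. DESeq2 called 1401 genes higher (2212 with edgeR), 30 members higher (54), 8 lower (15), and 12 KRAB members higher (24) and 0 lower (3; 2 lower at unadjusted p under 0.05 in DESeq2, 5 in edgeR). Without genes whose exons overlap another gene, 8 members were lower. With 1 library left out, a lone sample is assumed to vary like the other group: 1508 to 2065 genes were higher and 1446 (without R882H replicate 1) to 2168 lower, 39 to 47 members higher and 7 to 17 lower, and 17 to 23 KRAB members higher and 0 to 5 lower. The fewest lower members came without EV replicate 2, which kept 7 of the 15. Whether replicate numbers pair the samples is not on the labels. Deviations from the group mean correlated at −0.000817 between the libraries numbered 1. Those of the other libraries mirror them, so this value cannot settle the pairing. With a replicate block 53 members were higher and 16 lower. Member medians ran from 0.27 to 0.35, KRAB medians from 0.41 to 0.53 and medians of the others from 0.11 to 0.25 (the highest without overlapping genes) over all settings, with all-gene medians from −0.006 to 0.02. Among the 43 named members, signs turned in 8, none of them called. With 1 library left out, log2 fold changes ran from −0.10 to 0.041 (Zfp207), −0.071 to 0.11 (Zfp148), −0.041 to 0.044 (Zfp292), −0.030 to 0.27 (Zfp318), −0.11 to 0.14 (Zfp384), −0.12 to 0.24 (Zfp592), −0.048 to 0.29 (Zfp644) and −0.12 to 0.024 (Zfp326). Zfp292 also gave −0.0043 in DESeq2, −0.0042 with its size factors, −0.013 with library size only and −0.0053 without overlapping genes, and Zfp384 −0.0084 with library size only. The cause was not tested. Depth sets the floor of 0.501 to 0.549 CPM under which a member is not detectable.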

Other observations

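Related zinc finger families with at least 40 counts were counted in the same way. Of 34 Zbtb genes, whose proteins pair zinc fingers with a BTB domain, 8 rose (23.5%) and 4 fell (11.8%), where 19.3% and 19.4% of all genes tested did, with a median log2 fold change of 0.13. Of 14 Zfp genes with a letter after the number, 7 rose, with a median of 0.48. Of 6 Zscan genes 2 rose, and of 7 Zkscan genes 1 rose, and these last 3 groups are too small to set against the 19.3% of all genes that rose.

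Most of the listed imprinted genes, some of which KRAB proteins guard, had too few counts to test. Of 34 listed, 9 were tested, 3 rose and 1 fell. These 9 are too few to set against the 19.3% and 19.4% of all genes tested. Dlk1 had 329 and 269 counts in R882H against 27 and 21 in EV (log2 fold change 3.56 ± 0.22, adjusted p = 1.59e-15), Peg13 had 195 and 153 counts in R882H against 60 and 64 in EV (1.41 ± 0.19), and Kcnq1ot1 had 423 and 340 counts in R882H against 222 and 235 in EV (0.67 ± 0.14). Ascl2 had 10 and 13 counts in R882H against 29 and 28 in EV (−1.37 ± 0.40, adjusted p = 0.00715).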
